A study of Mus musculus with 6 samples.

Results

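ATRX is a chromatin remodelling protein, and the 250 regions described here are the ATRX peaks of mouse chromosomes 13 and 3, out of 3037 peaks in 2 lists. The assay was ChIP-seq, in which DNA fragments bound to a protein are pulled down by an antibody, here H300 against ATRX, then sequenced and mapped. The members were selected by chromosome, and the chromosomes were chosen with earlier results of these data known. The members are 116 of the 983 peaks in the foetal liver list and 134 of the 2054 in that of mouse embryonic fibroblasts (MEFs). Within them, 2 stretches that hold histone gene clusters were set against the rest, at 21 to 24.5 Mb of chromosome 13 and at 95 to 96.6 Mb of chromosome 3, and these are called the windows below. The windows were chosen from the crowding of foetal liver peaks, so peak numbers inside them are a description and carry no test.

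The series has 6 samples with 1 library in each group, and 2 of them were used. The MEFs, connective-tissue cells grown in culture, were of the C57BL/6 strain. The foetal liver cells were C57BL/6 erythroid (red blood cell) precursors taken at embryonic day E14.5 and selected for Ter119, a surface protein of maturing red cells. No genetic change is labelled for either group, and whether several embryos were pooled is not given in the sources used here. The lists hold positions only, in mm9, so the depth behind a peak is unknown, cell identity could not be checked against marker genes, and peaks could not be ranked by strength. With 1 library per cell type there was no replicate, so cell type, depth, control and library cannot be told apart wherever the lists differ. Intervals are 95% and cover the counting of peaks only.

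ATRX works with the histone chaperone DAXX to place the histone variant H3.3 into chromatin, and is known for its presence at telomeres, at heterochromatin beside centromeres and at G-rich tandem repeats. Histones are the proteins around which DNA is wound. Most of them are made from replication-dependent genes, which are short, are present in many near-identical copies, sit in clusters and are switched on while DNA is copied. The cluster of chromosome 13 is the main one in the mouse, and that of chromosome 3 is a smaller one. H2A, H2B, H3 and H4 form the core particle, and H1 binds the DNA that links particles.

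The RefSeq gene table used for names is of another build, GRCm38.p6, so peaks were not placed on single genes and only the order of genes was taken from it. It holds 111 genes matched by histone symbol, 58 of them on chromosome 13 and 11 on chromosome 3. Of the 58, 3 are pseudogenes (disabled gene copies). On chromosome 13, 56 fell into 3 blocks, a block being broken where more than 10 other genes intervene. The first block ran from H2bc13 to H4bc24 with 19 histone genes (1 H1, 6 H2A, 6 H2B, 2 H3 and 4 H4), and 1 other gene lay among them. After 39 further genes, 31 of them for transfer RNA (tRNA), came a block of 5 from H2ac12 to H2bc11. Another 147 genes followed, with 75 named Vmn1r (vomeronasal receptors, which detect pheromones) and 46 tRNA genes among them. Many of the Vmn1r entries carry pseudogene names. The last block, from H4c8 to H2ac1, had 32 histone genes (5 H1, 7 H2A, 7 H2B, 7 H3 and 6 H4) and 12 other genes. H4bc24 was counted as H2B, the type that its older names in the table give. On chromosome 3, 10 histone genes from H2ac21 to H2bc18 (4 H2A, 2 H2B, 3 H3 and 1 H4) formed a single block with 1 other gene. The 30 genes after that block included 15 tRNA genes and 5 small nuclear RNA genes. H2az1, which encodes the replacement variant H2A.Z, lay elsewhere on chromosome 3.

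**Figure D1:**
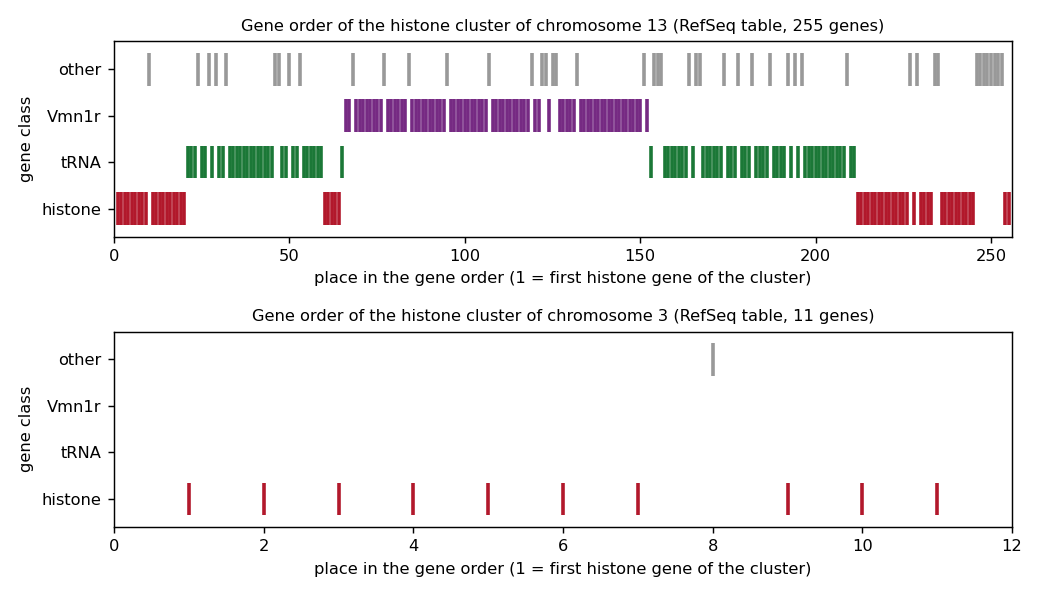
Order of genes across the histone clusters of chromosome 13 (255 genes) and chromosome 3 (11 genes) in the RefSeq table. Each bar is 1 gene, the horizontal axis is its place in the order with no distances, and the rows separate histone, tRNA, Vmn1r and other genes; the chromosome 13 histone genes stand in blocks of 19, 5 and 32, with 75 Vmn1r genes between the last 2 blocks.

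The promoters of these genes hold short elements known from histone genes. RefSeq promoter sequences (GRCm38.p6) were found for 61 of the 69 histone genes of both chromosomes. The last 100 bases before the start site are printed 5′ to 3′ on the strand of each gene, for 1 gene of each histone type on chromosome 13 (H1f3, H2ac4, H2bc3, H3c2 and H4c4), for H2ac21 and H2bc18 of chromosome 3, and for an H2B pair of chromosome 13 with identical bases. The examples were picked after their motif matches were seen, and no peak was placed on any of them. Capitals mark CCAAT boxes (CCAAT), TATA boxes (TATAAA) and the octamer (ATTTGCAT), an element known from H2B promoters, on either strand.
H1f3: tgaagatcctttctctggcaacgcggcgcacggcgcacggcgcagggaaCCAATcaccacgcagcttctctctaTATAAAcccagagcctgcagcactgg
H2ac4: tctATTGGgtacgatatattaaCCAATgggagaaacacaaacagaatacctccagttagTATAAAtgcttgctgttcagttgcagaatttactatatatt
H2bc3: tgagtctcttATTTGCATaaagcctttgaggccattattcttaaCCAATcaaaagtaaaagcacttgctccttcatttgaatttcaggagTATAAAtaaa
H3c2: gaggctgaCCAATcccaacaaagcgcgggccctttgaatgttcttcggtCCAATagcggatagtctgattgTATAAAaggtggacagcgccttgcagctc
H4c4: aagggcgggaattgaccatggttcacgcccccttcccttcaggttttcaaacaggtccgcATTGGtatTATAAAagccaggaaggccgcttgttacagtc
H2ac21: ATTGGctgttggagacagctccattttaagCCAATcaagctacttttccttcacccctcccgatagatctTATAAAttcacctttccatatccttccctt
H2bc18: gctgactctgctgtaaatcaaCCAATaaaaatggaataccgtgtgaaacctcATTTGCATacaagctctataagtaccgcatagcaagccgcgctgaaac
H2bc23: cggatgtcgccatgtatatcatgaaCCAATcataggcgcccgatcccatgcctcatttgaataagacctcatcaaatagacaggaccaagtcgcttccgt
H4bc24: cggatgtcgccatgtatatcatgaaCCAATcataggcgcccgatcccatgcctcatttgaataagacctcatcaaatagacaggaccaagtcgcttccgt

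In the 250 bases before the start, CCAAT was present on either strand in 51 of the 61 histone promoters (83.6%), against 33.8% of all 32851 promoters in the table. All 6 H1, all 18 H2A and all 16 H2B promoters had it, as did 8 of 10 H3 and 3 of 11 H4 promoters. TATAAA was in 28 of 61 (45.9%), against 12.4% of all promoters. ATTTGCAT was in 12 of 61 (19.7%), against 1.60% of all, and those 12 were 6 H2A and 6 H2B promoters. Neighbouring H2A and H2B genes on opposite strands can share upstream bases, as H2ac8 and H2bc8 do in part. A motif in shared bases counts for both genes, so the 12 promoters need not hold 12 separate sites. The same holds for CCAAT and TATAAA. These matches describe the genes and not the peaks, whose own bases were not analysed here. Among the 61 promoters, 2 shared all 100 printed bases with another, H2bc23 and H4bc24. Copies shifted along the sequence, as in H4c17 and H4c18, were not counted. How reads from such copies were handled is not given in the sources used here.

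In foetal liver, 56 of the 116 peaks of both chromosomes (48.3%, exact interval 38.9 to 57.7%) lay in the windows, which make up 1.86% of the sequence of these chromosomes after the unsequenced first 3 Mb. In MEFs it was 7 of 134 peaks (5.22%, 2.13 to 10.5%). On chromosome 13 the foetal liver list had 40 of 66 peaks in the window (60.6%, 47.8 to 72.4%), and on chromosome 3 it had 16 of 50 (32.0%, 19.5 to 46.7%). The MEF list had 2 of 60 (3.33%, 0.406 to 11.5%) and 5 of 74 (6.76%, 2.23 to 15.1%). The windows together held 5.70% of all foetal liver peaks in 0.197% of the genome's sequence, and 0.341% of all MEF peaks.

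Foetal liver peaks stood at 11.4 per Mb in the chromosome 13 window (exact Poisson interval 8.16 to 15.6) and at 10.0 per Mb in the chromosome 3 window (5.72 to 16.2). The rest of these chromosomes had 0.229 per Mb (0.149 to 0.335) and 0.219 per Mb (0.152 to 0.307). The window density was thus 50.0 times that of the rest on chromosome 13 and 45.6 times on chromosome 3. Both values of the rest lay below the 0.374 per Mb (0.349 to 0.399) of the other chromosomes. The rest, however, leaves out stretches chosen for their crowding, while the other chromosomes keep theirs. With the windows included, foetal liver peaks stood at 0.563 per Mb (0.435 to 0.716) on chromosome 13. On chromosome 3 the value was 0.319 per Mb (0.237 to 0.421), an interval that includes 0.374. Both values hold the crowded peaks by which the windows were chosen and are not independent of that choice. In MEFs the chromosome 13 window had 0.571 peaks per Mb (0.0692 to 2.06) and its rest 0.510 (0.387 to 0.659), so the intervals overlapped. The chromosome 3 window had 3.13 MEF peaks per Mb (1.01 to 7.29) against 0.445 (0.346 to 0.563) in the rest, a ratio of 7.02 that stands on 5 peaks. Outside the windows the MEF list was also sparser on these chromosomes, at 0.472 per Mb (0.394 to 0.562), than on the others, at 0.827 per Mb (0.791 to 0.865).

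**Figure D2:**
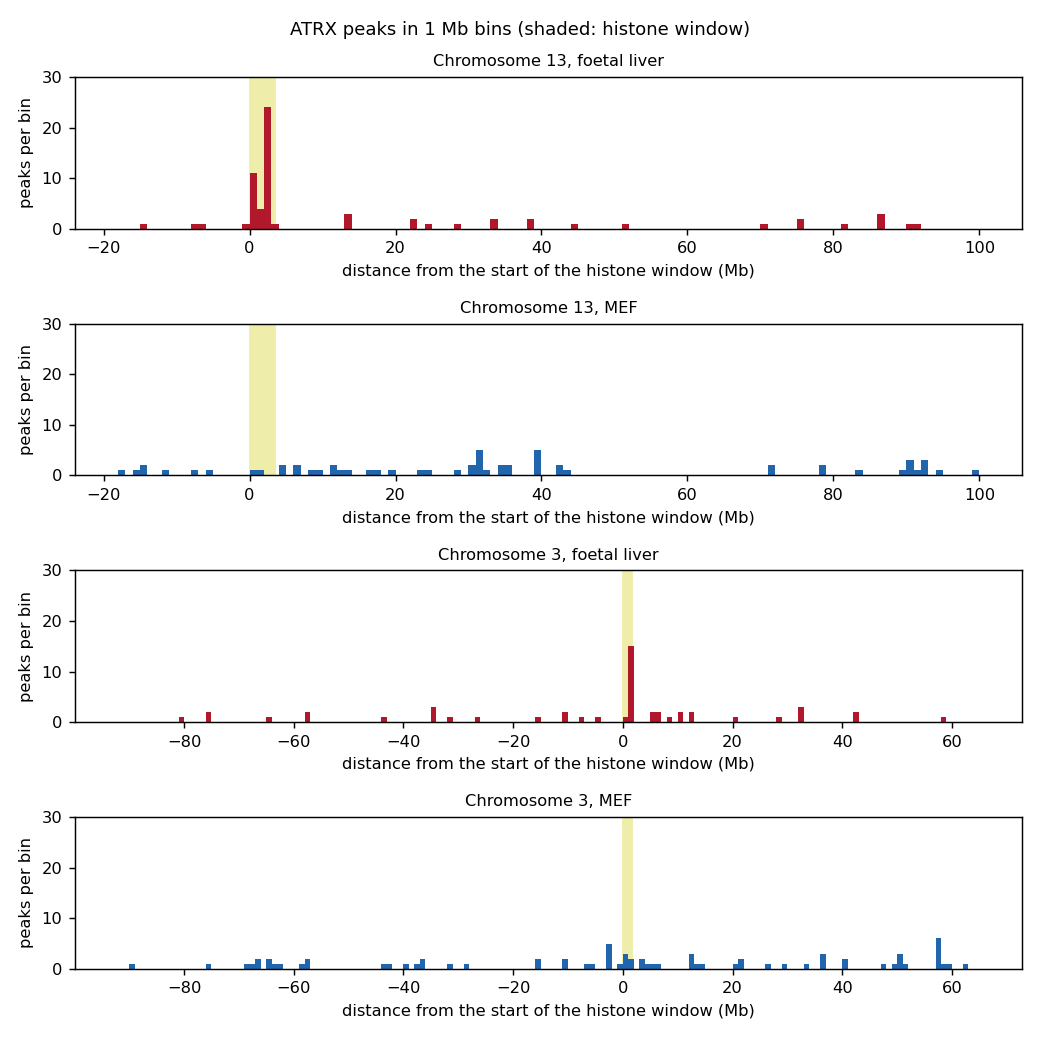
Number of ATRX peaks per 1 Mb bin along chromosomes 13 and 3 in the foetal liver and MEF lists, with the horizontal axis as the distance in Mb from the start of the histone window (shaded). The foetal liver bins of 11 and 24 peaks on chromosome 13 and of 15 peaks on chromosome 3, all in the windows, stand above every other bin, while the other window bins hold 1 to 4 foetal liver peaks and outside bins hold at most 3 foetal liver peaks, 5 MEF peaks on chromosome 13 and 6 MEF peaks on chromosome 3.

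The window limits cut through no run of foetal liver peaks. On chromosome 13 the first foetal liver peak inside (21026068 to 21027134) lay 26.1 kb from the edge and the last peak before it ended 757 kb outside. The last peak inside (24251199 to 24251904) lay 248 kb from the distal edge, and no further foetal liver peak came for 9.94 Mb. On chromosome 3 the first and last peaks inside lay 323 and 293 kb from the edges, and the nearest outside peaks lay 4720 and 3642 kb beyond them.

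Most foetal liver peaks of the windows stood in runs, defined as 3 or more peaks with gaps of at most 50 kb. The windows held 8 such runs with 50 of the 56 peaks (89.3%), and the rest of both chromosomes held 0 runs. Over the whole foetal liver list 15.8% of peaks stood in runs. Of the 6 foetal liver runs with 6 or more peaks in the genome, 5 were in the windows, and the longest run elsewhere had 6 peaks, on chromosome 7. These counts follow from the same crowding that chose the windows and are not independent of it.

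The chromosome 13 peaks formed 2 groups with an empty stretch of 1.39 Mb between them (22142763 to 23529364). The proximal group began with a single peak and a run of 3 (21261257 to 21314741, 53.5 kb). After 492 kb came a run of 7 peaks over 120.0 kb (21806567 to 21926565), with a median gap of 22.8 kb and widths of 452 to 1140 bp. The closest pair in that run was 1541 bp apart (21871239 to 21872275 and 21873817 to 21874896). A single peak (22010798 to 22011392) and a run of 3 within 15.4 kb (22127366 to 22142763) ended the group. The gene order described above has its long Vmn1r and tRNA stretch between the last 2 histone blocks. Whether the empty stretch of the peaks falls there was not tested, since positions of the 2 builds were not compared.

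The distal group of chromosome 13 was the denser of its 2 groups. A run of 15 peaks covered 116 kb (23598247 to 23714258), with gaps from 1.84 to 25.2 kb and a median gap of 5.01 kb. Its peaks ranged from 309 bp (23677741 to 23678049), the narrowest in either window of this list, to 2056 bp (23646776 to 23648831). A single peak of 1448 bp stood 62.1 kb further on (23776405 to 23777852).

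Then came the tightest run of all, with 7 peaks in 26.1 kb (23830557 to 23856644) and gaps of 1.47 to 4.87 kb. Peaks took up 29.3% of its length, against 11.7% in the run of 15 and 4.83% in the run of 7 of the proximal group. In order, its peaks were 23830557 to 23832705 (2149 bp), 23836215 to 23837117 (903 bp), 23838983 to 23839588 (606 bp), 23843356 to 23844296 (941 bp), 23849162 to 23850230 (1069 bp), 23853203 to 23853893 (691 bp) and 23855361 to 23856644 (1284 bp). The outer 2 were the widest of the 7. The distal group began and ended with single peaks (23529364 to 23530347 and 24251199 to 24251904), 67.9 kb and 395 kb from the nearest run. The MEF list had 0 peaks between them.

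On chromosome 3 the foetal liver peaks stood near the distal side of the window, 15 of 16 between 96024704 and 96307308. They formed runs of 6, 3 and 6 peaks. The first (96024704 to 96074284, 49.6 kb) included the closest pair of either window, 1153 bp apart (96050104 to 96050498 and 96051652 to 96052380). The run of 3 (96133894 to 96181079, 47.2 kb) ended in a peak of 2610 bp (96178470 to 96181079). The last run (96255256 to 96307308, 52.1 kb) held the widest foetal liver peak of both chromosomes, at 3357 bp (96287166 to 96290522). The narrowest peaks of this window, 348 bp (96043981 to 96044328) and 349 bp (96306960 to 96307308), lay in the first and last runs. The remaining peak stood alone (95323056 to 95323683), 701 kb before the others.

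The 7 MEF peaks of the windows lay at least 207 kb from each other. Within 10 kb of a foetal liver peak lay 2 of them (28.6%), against 4 of 127 (3.15%) in the rest and 5.74% of the whole MEF list. The median distance of the 7 to a foetal liver peak was 16.4 kb, against 1287 kb in the rest, where foetal liver peaks are far sparser. Both contrasts follow from the crowding of foetal liver peaks by which the windows were chosen and are not independent of it. On chromosome 13 the MEF peaks were 21263224 to 21263705 (482 bp) and 22112516 to 22113042 (527 bp), lying 715 bp and 14.3 kb from the nearest foetal liver peak. On chromosome 3 the first was 95321343 to 95322196 (854 bp), 859 bp from the lone foetal liver peak there. Next were 95529584 to 95531948 (2365 bp) and 95869658 to 95870543 (886 bp), 206 and 154 kb from one. The last were 96090723 to 96092795 (2073 bp), between 2 foetal liver runs and 16.4 kb from the nearer, and 96398611 to 96399606 (996 bp), 91.3 kb distal to the last run. The MEF peak at 21263224 was the only one that lay within the span of a foetal liver run, and none of the 7 overlapped a foetal liver peak.

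**Figure D3:**
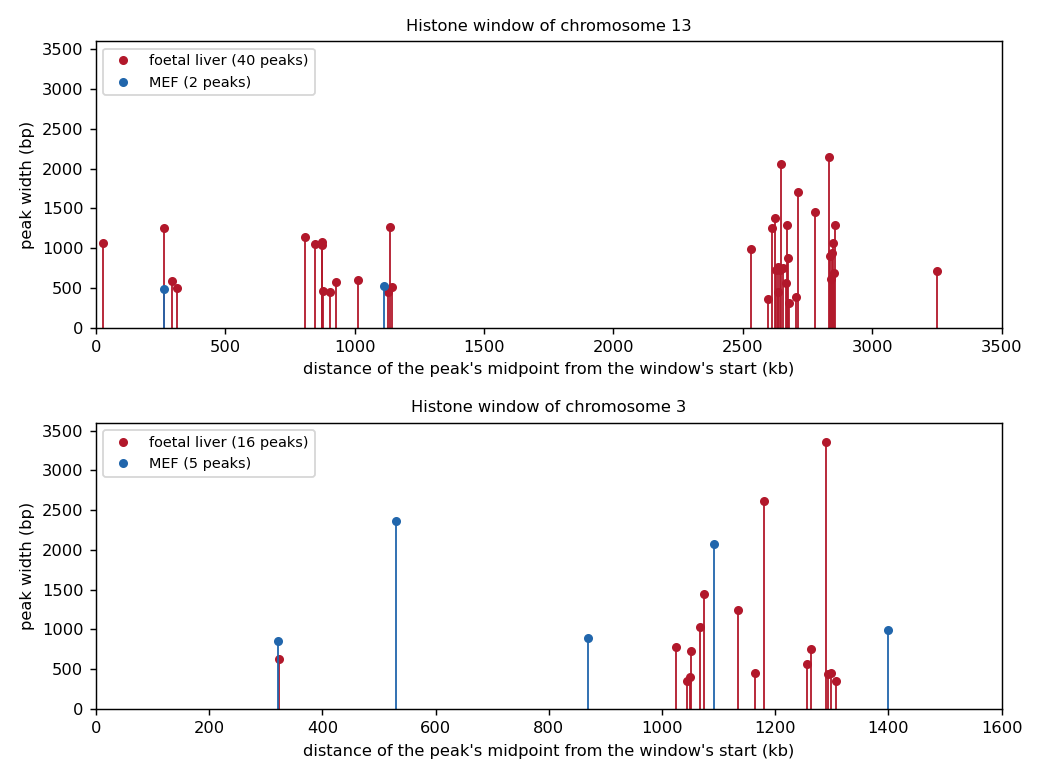
Every ATRX peak inside the histone windows of chromosome 13 (40 foetal liver and 2 MEF peaks) and chromosome 3 (16 and 5 peaks), by distance of its midpoint from the window's start in kb and by its width in bp. The foetal liver peaks of chromosome 13 form 2 groups with 1.39 Mb between them, and the widest peak of either window is the 3357 bp foetal liver peak of chromosome 3.

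Few peaks were shared between the lists. In foetal liver 2 of 116 peaks (1.72%, 0.209 to 6.09%) overlapped a MEF peak by at least 1 bp, against 6.21% over the whole list. In MEFs it was 2 of 134 (1.49%, 0.181 to 5.29%), against 3.12%. The share of the whole list lay within the MEF interval and just above the foetal liver one. Split by place, 0 of 56 foetal liver peaks in the windows were shared (0 to 6.38%). In the rest it was 2 of 60 (3.33%, 0.406 to 11.5%). Each interval includes the share of the whole list. Both shared regions were on chromosome 3 outside the window and had the same start and end in both lists. They were 19527651 to 19529259 (1609 bp) and 107280633 to 107283685 (3053 bp), which were also the widest foetal liver peaks of chromosome 3 outside the window. Identical limits were not particular to these 2 regions. Over the whole foetal liver list 61 peaks overlapped a MEF peak, and 61 had the same start and end as one. In the whole MEF list it was 61 of 64. Whether the 2 lists were called independently is not given in the sources used here. Within 10 kb of a MEF peak there were 6 of the 116 foetal liver peaks (5.17%), 2 in the windows and 4 outside, against 12.0% of the whole foetal liver list.

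The spacing of foetal liver peaks differed between windows and rest. In the windows 37 of 56 peaks (66.1%, 52.2 to 78.2%) had a foetal liver neighbour within 10 kb, against 2 of 60 (3.33%, 0.406 to 11.5%) in the rest and 18.8% over the whole list. The median distance to the nearest peak was 4.21 kb in the chromosome 13 window and 6.17 kb in that of chromosome 3, against 88.2 and 440 kb in their rests. Gaps under 1 kb were seen for 0 of the 56 window peaks, gaps of 1 to 5 kb for 27, of 5 to 10 kb for 10 and of 10 to 50 kb for 13. The single close pair outside the windows lay on chromosome 13 (96441101 to 96441851 and 96449128 to 96449993), 7276 bp apart. This spacing is again a consequence of the crowding by which the windows were chosen.

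MEF peaks had a MEF neighbour within 10 kb in 0 of 7 cases in the windows and in 10 of 127 (7.87%, 3.84 to 14.0%) in the rest, against 13% over the whole list. The closest MEF pair (6190456 to 6193393 and 6193514 to 6194076 on chromosome 13) was 120 bp apart. MEF runs on both chromosomes amounted to 1, with 4 of 134 peaks (2.99%), against 11.0% of peaks over the whole list. It lay on chromosome 3 (92012902 to 92111367) and held peaks of 4191, 5068, 5063 and 511 bp. The foetal liver list had 0 peaks in it.

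Peak width was not used to choose the windows. Foetal liver peaks had a median width of 748.5 bp in the windows (exact interval 606 to 1029 bp, 56 peaks) and of 682.5 bp in the rest (576 to 751 bp, 60 peaks), and the intervals overlapped. The median over the whole list was 675 bp (650 to 709 bp). On chromosome 13 the medians were 815.5 bp (606 to 1067 bp) in the window and 589.5 bp (526 to 755 bp) in the rest. On chromosome 3 the order was opposite, at 678.5 bp (438 to 1247 bp) in the window and 709.5 bp (644 to 891 bp) in the rest. Peaks over 2 kb numbered 4 of 56 in the windows (7.14%) and 1 of 60 in the rest (1.67%), against 4.68% of the whole foetal liver list. The median of the crowded peaks on both chromosomes together was thus within 1.5 times that of the whole list.

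In MEFs the median width was 886 bp for the 7 window peaks (482 to 2365 bp) and 1142 bp for the 127 others (953 to 1380 bp), against 1020 bp over the whole list (981 to 1065 bp). Of the 127 others, 31 (24.4%) were over 2 kb, against 18.5% of the whole MEF list. The widest were 98227385 to 98236527 on chromosome 3 (9143 bp) and 45715229 to 45723897 on chromosome 13 (8669 bp). Neither overlapped a foetal liver peak, although on chromosome 13 the widest foetal liver peak outside the window (45622402 to 45623921, 1520 bp) lay 91.3 kb away. The foetal liver peaks covered 10177 bp per Mb in the windows and 172 bp per Mb in the rest, and the MEF peaks 1605 and 737 bp per Mb.

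**Figure D4:**
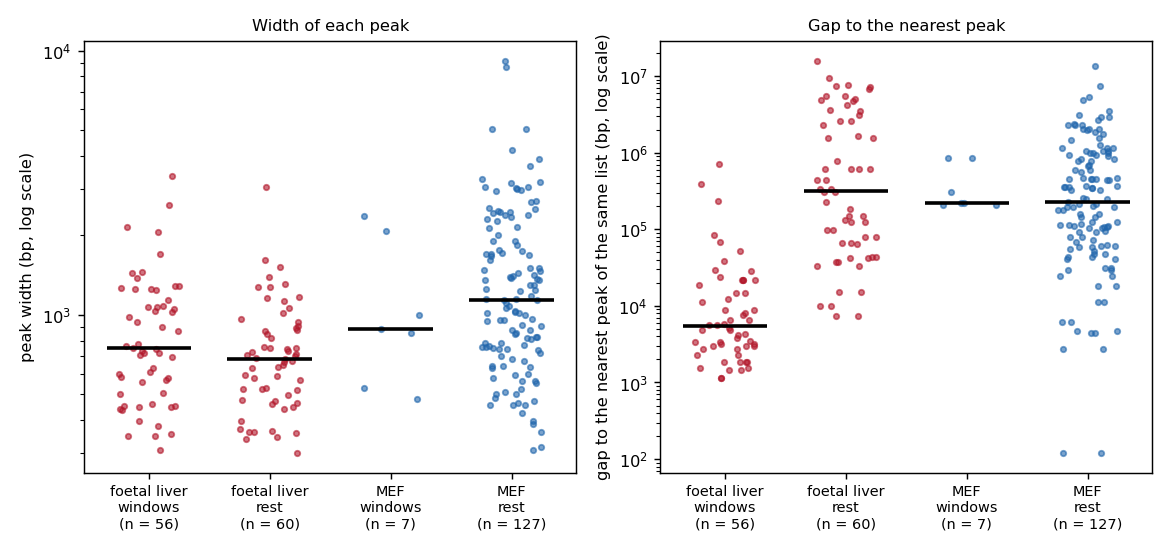
Width of each peak (left) and gap to the nearest peak of the same list (right), both in bp on log axes, for foetal liver and MEF peaks in the histone windows and in the rest of chromosomes 13 and 3. Each point is 1 peak and the bar is the median: widths of foetal liver peaks in windows and rest lie over the same range (medians 748.5 and 682.5 bp), while their gaps have medians of 5.40 and 319 kb.

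Outside the windows peaks of both lists were sparse. The 26 foetal liver peaks of the rest of chromosome 13 ran from 6452414 to 112732091 and the 34 of chromosome 3 from 14878827 to 153348428. No 1 Mb outside held more than 3 of them, and 2 stretches on each chromosome did so, with 0 MEF peaks in any. They were 34194302 to 34440979 and 107788628 to 107892201 on chromosome 13, and 60406897 to 60624305 and 127465991 to 127724338 on chromosome 3. For MEF peaks the highest number in 1 Mb was 5 on chromosome 13, reached in 4 stretches, 3 of them overlapping between 51423291 and 53124108 and the tightest at 60048363 to 60785169. On chromosome 3 it was 6 (152145470 to 152845572), and none of these MEF stretches held a foetal liver peak. Of 114 outside bins of 1 Mb on chromosome 13, 18 held foetal liver peaks, 36 held MEF peaks and 7 held both. Of 155 on chromosome 3, the numbers were 22, 45 and 12.

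Distances outside could be long. No foetal liver peak lay between 72626307 and 91613638 on chromosome 13, and the MEF list had a longer gap over the same stretch, from 64272086 to 92093279. The last foetal liver peak there (112730815 to 112732091) lay well before the last MEF peak (120217059 to 120217446). On chromosome 3 the last foetal liver peak (153347608 to 153348428) and the last MEF peak (157724608 to 157725576) stood 4376 kb apart.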

How the data were processed

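ATRX ChIP-seq peaks of C57BL/6 MEFs and C57BL/6 erythroid foetal liver were used, 1 library each. The submitters' processing notes name Bowtie 0.12.3 and mm9. How the authors called peaks, at which threshold and against which control, is not given in the sources used here. The deposited files have 3 columns (chromosome, start, end) with no height, score or count, so depth is unknown. Starts are printed counted from 1. The other 4 samples were not analysed here. They include an input library (DNA without the pull-down) of C57BL/6 MEFs, and the series has no input library of foetal liver.

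A peak was placed by its midpoint. Chromosome lengths of mm9 came from GenomeInfoDb 1.38.1, less the first 3 Mb. Shares have exact Clopper-Pearson intervals, densities exact Poisson intervals and medians exact order-statistic intervals, all at 95%. No test was run, since peaks are not replicates. Python 3.11.15, numpy 2.4.6, pandas 2.3.3 and scipy 1.17.1 were used, and the functions were checked on lists with planted answers. Named regions were the runs, the MEF peaks of the windows, the widest, narrowest and closest peaks, the shared peaks, the window edges and the densest 1 Mb outside. Further peaks were printed with their values already known. The members, windows and lists were chosen with earlier results of these data known. A RefSeq table of GRCm38.p6 gave gene names, gene order and promoter bases only.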

Additional observations from a re-analysis of the deposited data

How the results depend on the processing

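Of 92 alternative values for 22 results, 71 stayed within the main value's interval or, for counts, within 1.5 times. The other 21 follow from fewer or joined peaks or from another distance. Some of the 71 could not move. Foetal liver peaks of both chromosomes had 0 gaps under 1 kb, so joining peaks within 1 kb left their values unchanged. Widening the windows by 0.5 Mb likewise reached no further foetal liver peak. With peaks within 10 kb joined, the foetal liver share in the chromosome 13 window was 44.4% instead of 60.6%, and the density in the windows was 5.69 instead of 11.0 per Mb. In the chromosome 3 window that joining gave a share of 20.9% instead of 32.0%, still inside the wide main interval (19.5 to 46.7%). With only the wider 50% of each list, foetal liver densities were 6.67 per Mb in the windows and 0.115 outside, MEF densities were 0.392 and 0.260, the MEF share in the chromosome 13 window was 0%, and the foetal liver runs numbered 4 with 24 peaks. A foetal liver neighbour within 1, 5 or 50 kb was found for 0%, 48.2% and 89.3% of window peaks and for 0%, 0% and 23.3% of the others. For MEF peaks outside the windows the shares were 1.57% within 1 kb and 20.5% within 50 kb. MEF runs numbered 0 (0 peaks) when gaps over 20 kb ended a run and 5 (18 peaks) when gaps over 100 kb did. At those limits the foetal liver runs of both chromosomes numbered 6 each time, of which 6 and 5 touched the windows. No paired analysis was possible because each group has 1 library. The unknown depth limits the reading of every missing peak, which may lie under the threshold of its list.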
